A study of Ovis aries with 6 samples.

Results

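Lower levels in cells overexpressing MEOX2 marked 3 unnamed genes that lie close together on sheep chromosome 21: ENSOARG00000009847, ENSOARG00000009865 and ENSOARG00000009963. They are 3 of the 26425 rows of a table of gene levels from 6 RNA sequencing libraries of Ovis aries cells. The series title and design text describe stromal vascular fraction cells of adipose tissue, a mixed fraction that holds fat cell precursors, whereas the sample labels call the cells adipocytes. In 3 libraries MEOX2, a homeobox transcription factor of the mesoderm, was overexpressed, and 3 libraries formed the control group, labelled NC. In the deposited table the column names of both groups begin with pHBLV, a name given to lentiviral vectors, which no source used here explains. The sample labels name no other allele or agent, and say nothing of a promoter, the stage of differentiation, or whether the replicates of a group were separate cultures or animals, so p-values measure only the spread between these libraries. The members were chosen by their lower values in the MEOX2 libraries than in the NC libraries and their place in 1 window of chromosome 21. Their own difference between the groups is therefore given as a description, with no test.

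The table gives these genes no symbol, and its description field is empty for them, as it is for all 25197 rows with an Ensembl identifier, so the genes were not identified. Of the 5 rows in the window, SAA4 is the only one with a symbol. SAA4 is a member of the serum amyloid A family, small proteins that circulate on high-density lipoprotein. The acute-phase members of that family are produced in the liver and in fat tissue, and inflammatory cytokines acting through NF-kB, STAT3 and C/EBP factors induce their transcription. In mammals the serum amyloid A genes stand together beside HPS5, a subunit of a complex that builds lysosome-related organelles, and GTF2H1, a subunit of the transcription factor TFIIH. Position alone does not name a gene, and whether the 3 members belong to that family was not tested here. No sequence of these genes was used.

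From left to right along the chromosome, the window held ENSOARG00000009847 (25773003 to 25775564, minus strand), ENSOARG00000009865 (25785258 to 25789326, plus strand), ENSOARG00000009899 (minus strand), SAA4 (ENSOARG00000009961, 25800835 to 25808122, plus strand) and ENSOARG00000009963 (25823134 to 25829605, plus strand), in the coordinates of the deposited table, whose genome build is not given in the sources used here. The members thus spanned 56603 bases and were not adjacent to each other throughout, because both other rows lie between the second and the third member. All 5 rows are annotated as protein coding, and no rows of the window overlap. The gene models of the members measure 519, 390 and 3060 bases, each a multiple of 3, as were 74.1% of the protein-coding models. Near-identical copies of a gene can share reads, and how such reads were assigned is not given in the sources used here.

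Whole reads recovered from the deposited values (processing section) totalled 11772772 to 12230863 per library. MEOX2 itself was at 152.7, 107.7 and 138.4 FPKM (fragments per kilobase of gene length, scaled to library size) in the MEOX2 libraries and at 10.8, 10.1 and 9.03 FPKM in the NC libraries. The 13.3-fold difference had the direction the labels give, and an exact two-sided permutation test gave p = 0.1, the smallest that 3 against 3 libraries allow. Over the whole table, 350 of 13121 tested genes passed a limma adjusted p of 0.05, or 2.67%; 1.16% were lower and 1.51% higher with MEOX2.

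All 3 members were lower in every MEOX2 library than in any NC library. ENSOARG00000009963 was the most abundant of them, at 485.5, 561.8 and 353.2 FPKM in NC replicates 1, 2 and 3 and at 163.2, 248.5 and 223.3 FPKM in MEOX2 replicates 1, 2 and 3. Its group means were 466.8 ± 105.5 FPKM in NC and 211.7 ± 43.8 FPKM with MEOX2 (SD, n = 3 each), a 2.21-fold difference and a log2 change of -1.13 (SE 0.19) on the log2(FPKM + 1) scale. The groups did not overlap, and the lowest NC value was 1.42 times the highest MEOX2 value. By mean level in NC this unnamed gene ranked 219 of the 26425 rows, and with MEOX2 it ranked 452. Between 5684 and 21042 reads per library lay behind these values.

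ENSOARG00000009847, the leftmost member, was at 89.1, 85.6 and 54.8 FPKM in NC replicates 1, 2 and 3 and at 26.1, 39.5 and 37.6 FPKM in MEOX2 replicates 1, 2 and 3. NC replicate 3 was well below the other NC libraries, and still 1.39 times the highest MEOX2 library. The means were 76.5 ± 18.9 FPKM in NC and 34.4 ± 7.27 FPKM with MEOX2 (SD, n = 3 each). This 2.22-fold difference, a log2 change of -1.12 (SE 0.21), was close in size to that of ENSOARG00000009963. It rested on 154 to 555 reads per library.

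ENSOARG00000009865, the shortest and least abundant member, was at 55.3, 67.7 and 47.3 FPKM in NC replicates 1, 2 and 3 and at 10.8, 16.1 and 19.1 FPKM in MEOX2 replicates 1, 2 and 3. The lowest NC library was 2.48 times the highest MEOX2 library, the widest gap of the 3 genes. Its means were 56.8 ± 10.2 FPKM in NC and 15.3 ± 4.18 FPKM with MEOX2 (SD, n = 3 each), a 3.71-fold difference and a log2 change of -1.84 (SE 0.20). Among all 13121 tested genes this was the change ranked 6 from the most negative, with ENSOARG00000009963 at 29 and ENSOARG00000009847 at 30. Between 48 and 323 reads per library lay behind it, the fewest of the 3.

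**Figure D1:**
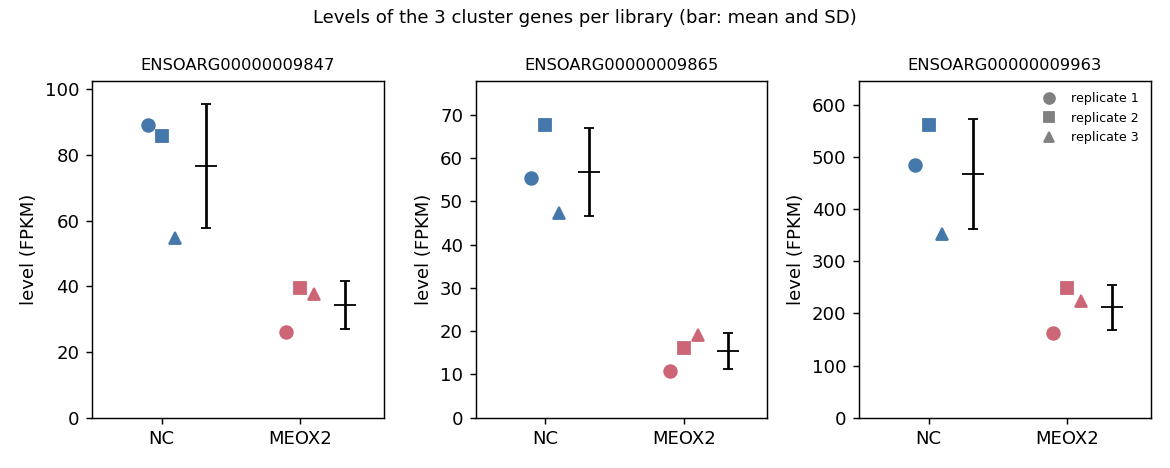
Levels of the 3 cluster genes in FPKM on linear axes from 0, with 1 point per library (marker shape gives the replicate number) and a bar for the mean and SD of each group. Every MEOX2 point lies below every NC point in each panel; NC replicate 3 is the lowest NC point and MEOX2 replicate 1 the lowest MEOX2 point of each gene.

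All 3 members had groups that did not overlap, with MEOX2 lower, against 9.33% of tested genes. That count restates the contrast that chose the genes. In bulk RNA, fewer cells that make a transcript and less of it per cell cannot be told apart. With 1 library left out in turn, the log2 change of ENSOARG00000009865 lay between -2.01 and -1.63, that of ENSOARG00000009963 between -1.32 and -0.96 and that of ENSOARG00000009847 between -1.34 and -0.94.

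Summed, the 3 genes reached 630.0, 715.1 and 455.3 FPKM in NC replicates 1, 2 and 3 and 200.1, 304.1 and 280.0 FPKM in MEOX2 replicates 1, 2 and 3. They took 0.150% ± 0.033 of all reads in NC and 0.0675% ± 0.016 with MEOX2 (SD, n = 3 each). ENSOARG00000009963 made up most of the sum in both groups, 77.1% to 78.6% of the summed FPKM in NC and 79.8% to 81.7% with MEOX2.

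The size of the fall differed among the members in these libraries. Within a library, ENSOARG00000009847 stood at 0.184, 0.152 and 0.155 of the FPKM of ENSOARG00000009963 in NC replicates 1, 2 and 3 and at 0.160, 0.159 and 0.169 in MEOX2 replicates 1, 2 and 3. These ratios overlapped between the groups, with means of 0.164 ± 0.017 in NC and 0.162 ± 0.0053 with MEOX2 (SD, n = 3 each), although the genes lie on opposite strands and at opposite ends of the cluster. ENSOARG00000009865 stood at 0.114, 0.120 and 0.134 of ENSOARG00000009963 in NC and at 0.0663, 0.0647 and 0.0854 with MEOX2. That ratio did not overlap between the groups, with means of 0.123 ± 0.010 and 0.0721 ± 0.012 (SD, n = 3 each). Since the members were chosen by this contrast, no test of the ratios was made.

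**Figure D2:**
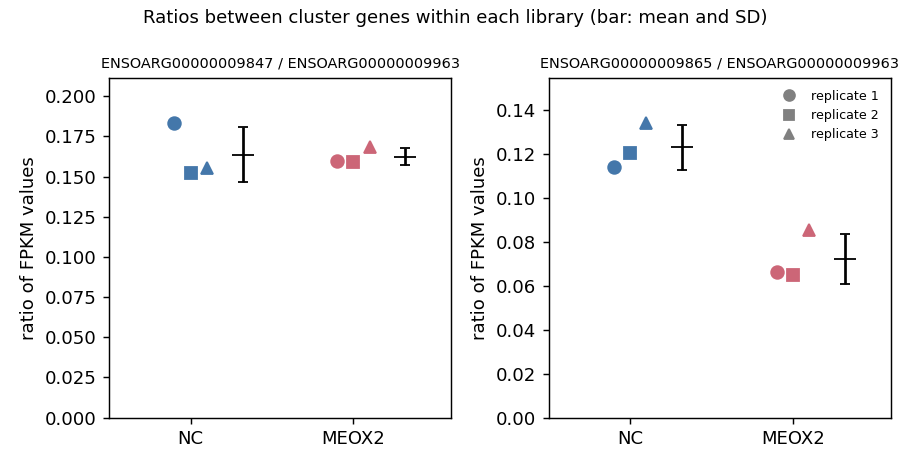
Ratio of FPKM values between cluster genes within each library, on linear axes from 0, with 1 point per library and a bar for the mean and SD of each group. The ratio of ENSOARG00000009847 to ENSOARG00000009963 lies between 0.152 and 0.184 in all 6 libraries, whereas that of ENSOARG00000009865 to ENSOARG00000009963 is 0.114 to 0.134 in NC and 0.0647 to 0.0854 with MEOX2.

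The members also shared the spread among libraries of 1 group, in the same libraries that served to choose them. MEOX2 replicate 1 was the lowest MEOX2 library and NC replicate 3 the lowest NC library for each of the 3 genes. As deviations from the group means of log2(FPKM + 1), MEOX2 replicate 1 lay at -0.36, -0.43 and -0.35 for ENSOARG00000009847, ENSOARG00000009865 and ENSOARG00000009963, and NC replicate 3 at -0.44, -0.24 and -0.38. Across the 6 libraries these deviations had a Pearson r of 0.95 between ENSOARG00000009847 and ENSOARG00000009963, 0.87 between ENSOARG00000009865 and ENSOARG00000009963 and 0.82 between ENSOARG00000009847 and ENSOARG00000009865. Centring on the group means leaves fewer free values than libraries, and the 3 genes share library and depth, so these correlations only describe the 6 libraries.

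The other rows of the window were silent or nearly so. ENSOARG00000009899 had no read in any library, and SAA4, the constitutive serum amyloid A, had 1 read in NC replicate 3 and none in the other libraries. Neither passed the filter of a mean of 1 FPKM, and no change can be given for them at this depth.

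Among the tested genes on either side, limma called none lower, beside 1.16% of all tested genes. At that share, the absence of a call among so few genes is unremarkable. Within 500 kb of the window lay 33 further rows, both silent rows included, of which 7 were tested, 19 had no read in any library and 1 was higher; 1 had an unadjusted p under 0.05. The nearest tested gene to the left, HPS5, ended 30.5 kb from the cluster and averaged 9.23 ± 0.862 FPKM in NC and 8.51 ± 0.954 FPKM with MEOX2 (SD, n = 3 each), a log2 change of -0.11 (SE 0.11; limma adjusted p = 0.772). Next to it GTF2H1 had a log2 change of 0.11 (SE 0.09; limma adjusted p = 0.674). LDHA, the lactate dehydrogenase subunit of glycolysis and among the most abundant transcripts here, averaged 1035 ± 18.0 FPKM in NC and 1018 ± 79.9 FPKM with MEOX2 (SD, n = 3 each). TSG101, UEVLD and SPTY2D1, farther out, had log2 changes of -0.08, -0.0085 and -0.0094.

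To the right no tested row was met before VWA5A, 451.8 kb from the cluster, a gene with a von Willebrand factor A domain. It was at 53.3, 46.4 and 49.0 FPKM in the MEOX2 libraries and at 36.2, 30.3 and 35.6 FPKM in the NC libraries. VWA5A rose, by 0.53 on the log2 scale (SE 0.09; limma adjusted p = 0.0234), the opposite direction to the cluster, where 1.51% of tested genes were called higher. Its call was lost without MEOX2 replicate 1, MEOX2 replicate 3, NC replicate 1 or NC replicate 2 (limma adjusted p up to 0.0918), and without the filter on low values (0.0584). Between HPS5 and VWA5A the table lists 23 rows, of which 5 have a symbol, 19 had no read and only the 3 members reached a mean of 1 FPKM. Symbols among the silent rows to the right, such as OR8D4 and OR6T1, are those of odorant receptors. RefSeq, in its sheep assembly ARS-UI_Ramb_v3.0, has 40 rows between the same genes, none with a symbol other than a LOC name. Over chromosome 21, members left out, 5 of 368 tested genes were lower and 5 higher, beside 1.16% and 1.51% of all tested. The median log2 change there was -0.02, beside -0.0027 over all tested genes.

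**Figure D3:**
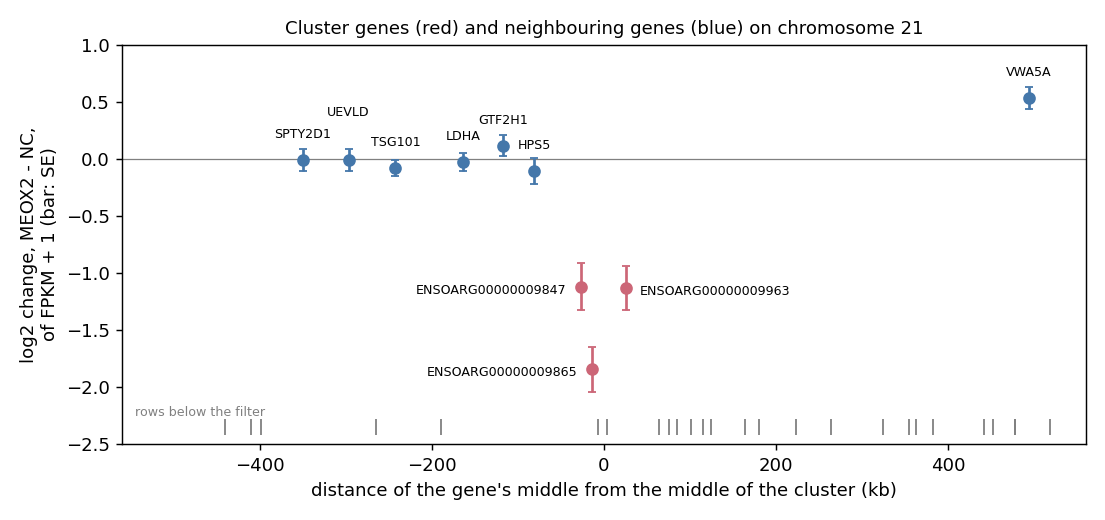
Log2 change between MEOX2 and NC on the log2(FPKM + 1) scale, with its SE, against the distance in kb of each gene's middle from the middle of the cluster, for the members (red) and the other tested genes within 500 kb (blue); grey ticks mark rows below the filter. The 3 members lie between -1.84 and -1.12, the 6 tested genes to the left between -0.11 and 0.11, and VWA5A at 0.53.

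Because the 1 named row of the window is a serum amyloid A gene, other acute-phase proteins were read out. The list read here held 24 symbols, of which 17 were matched in the table; SAA1, SAA2, SAA3, HP, ORM1, SERPINA3 and C3 were not matched. Only 3 of the 17 reached the filter, and 7, among them the classical liver products CRP, LBP and SERPINA1, had no read in any library. The 3 tested, PTX3, TF and CFB, were all called lower, beside 1.16% of all tested genes. Their median log2 change was -0.49, beside -0.0027 over all tested genes. The list did not separate proteins that rise in an acute-phase response from those that fall. The 3 falls are therefore not read as 1 direction of that response.

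PTX3, the long pentraxin secreted by stromal and myeloid cells, was at 4457, 4175 and 3863 FPKM in the NC libraries and at 2852, 3149 and 2660 FPKM in the MEOX2 libraries. Its groups did not overlap, and the log2 change was -0.53 (SE 0.09; limma adjusted p = 0.0210). The call was lost without MEOX2 replicate 3, NC replicate 1 or NC replicate 2 (limma adjusted p up to 0.122), and without the filter on low values (0.130). TF, the iron carrier transferrin, went from 75.7 ± 7.54 to 53.4 ± 4.20 FPKM (SD, n = 3 each, log2 change -0.49, limma adjusted p = 0.0327). CFB, complement factor B of the alternative pathway, went from 66.2 ± 3.91 to 49.7 ± 1.40 FPKM (SD, n = 3 each; log2 change -0.40, limma adjusted p = 0.0292). TF lost its call without MEOX2 replicate 1 or 3 or NC replicate 1 or 2 (limma adjusted p up to 0.134), and CFB without any library but NC replicate 3 (up to 0.150). TF also lost it without the filter (limma adjusted p = 0.0768), and both lost it without limma's trend (up to 0.0711). The members' log2 changes, -1.12 to -1.84, were all further from 0 than those of these 3 acute-phase genes. The members were chosen by their fall in this contrast and the 3 genes came from a list, so the sizes are not comparable.

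Transcripts of the signals known to act on acute-phase genes showed no call. Of 27 ligands, receptors and transcription factors, 25 were matched and 19 tested. Neither limma nor limma voom called any, where limma called 2.67% of all tested genes. At that share, the absence of a call among so few genes is unremarkable. An unadjusted p under 0.05 by limma was found for 6. The share of all tested genes with such a p is not given here, so that count has no background. The median log2 change was -0.11. IL6, a cytokine that acts through STAT3, averaged 51.0 FPKM in NC and 45.8 FPKM with MEOX2 (limma adjusted p = 0.698). The IkB family genes NFKBIZ and NFKBIA, which NF-kB itself induces, had log2 changes of -0.34 (SE 0.11; limma adjusted p = 0.190) and -0.28 (SE 0.10; 0.231). TNFAIP3, the A20 brake on NF-kB, had one of 0.32 (SE 0.08, limma adjusted p = 0.103), and the kinase IRAK1 one of 0.21 (SE 0.09, 0.326). SOCS3 and the cytokine LIF had log2 changes of -0.25 (SE 0.11, limma adjusted p = 0.337) and -0.24 (SE 0.11, 0.357). These genes, with NFKBIZ and NFKBIA, are the 6 with an unadjusted p under 0.05 by limma. CEBPD averaged 596.6 FPKM in NC and 606.4 FPKM with MEOX2, with a log2 change of 0.01 (SE 0.15). IL1B, TNF and OSM were at most 0.236 FPKM in any library. A p that misses the threshold does not show that these levels were equal, and transcript levels do not measure signalling.

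Of 13 genes for reported serum amyloid A receptors and lipoprotein partners, 11 were matched and 8 tested. APOE alone was called, as lower, beside 1.16% of all tested genes called lower. APOE, an apolipoprotein made by adipose cells and macrophages (chromosome 14, 51709732 to 51711208), was at 461.5, 457.7 and 313.0 FPKM in NC replicates 1, 2 and 3 and at 162.7, 213.3 and 205.8 FPKM in MEOX2 replicates 1, 2 and 3. It fell 2.12-fold (log2 change -1.07, SE 0.16; limma adjusted p = 0.0123), with no overlap between groups. That call was lost without NC replicate 1 (limma adjusted p = 0.0568) or NC replicate 2 (0.0539), and without the filter on low values (0.0599). TLR2, a pattern receptor, had a log2 change of 0.52 (SE 0.20; limma adjusted p = 0.282), and ABCA1, which loads lipid onto apolipoproteins, one of 0.25 (SE 0.12; 0.415). SCARB1, the scavenger receptor for high-density lipoprotein, and TLR4 had log2 changes of -0.16 (SE 0.11) and 0.09 (SE 0.10). The median of the 8 was 0.06.

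**Figure D4:**
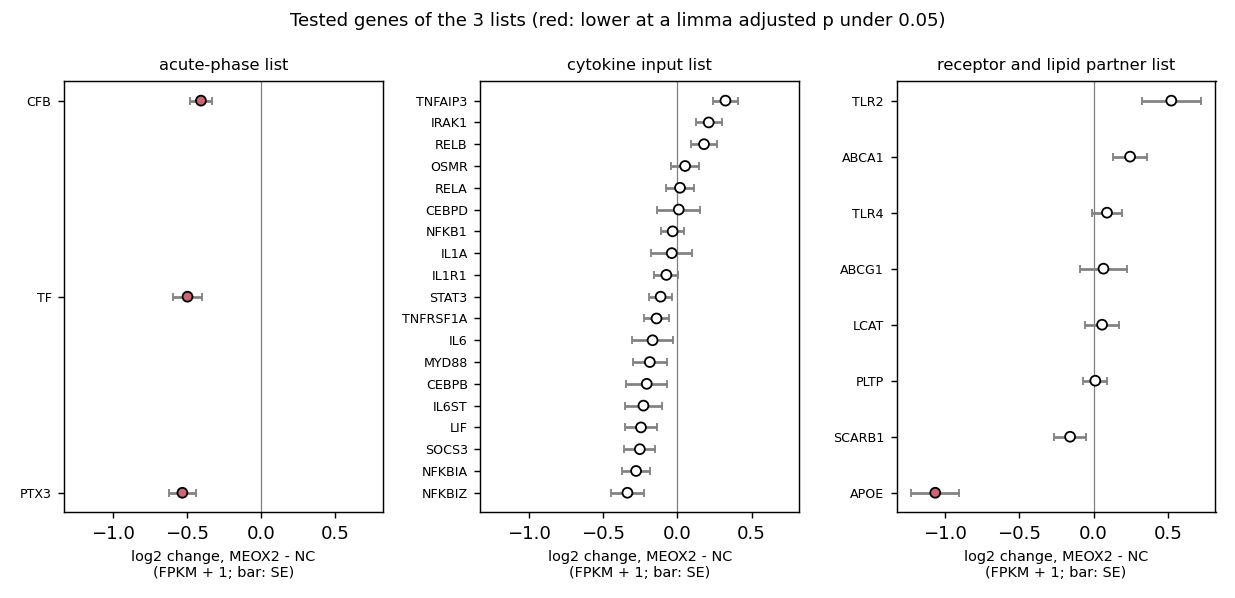
Log2 change between MEOX2 and NC on the log2(FPKM + 1) scale, with its SE, for each tested gene of the acute-phase, cytokine input and receptor and lipid partner lists; red points passed a limma adjusted p of 0.05 as lower. PTX3, TF and CFB lie between -0.53 and -0.40, APOE at -1.07, and no point of the cytokine input list is red.

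Genes with a symbol were then ordered by how closely their log2(FPKM + 1) followed that of the members' summed FPKM over the 6 libraries, which includes the difference between groups that chose the members. The 5 closest, by Pearson r, were RHOU (0.999), ADAMTS7 (0.996), APOE (0.993), IGFBP3 (0.993) and CDKN2C (0.992). None lies on chromosome 21. RHOU is a small GTPase, ADAMTS7 a secreted metalloprotease, IGFBP3 a carrier of insulin-like growth factors and CDKN2C a CDK inhibitor. IGFBP3 was at 145.4, 194.2 and 118.0 FPKM in the NC libraries and at 52.5, 81.7 and 70.3 FPKM in the MEOX2 libraries, a fall of 1.14 on the log2 scale (limma adjusted p = 0.0210). CDKN2C fell by 0.62 (limma adjusted p = 0.0307). IGFBP3 lost its call without MEOX2 replicate 1 or 3 or NC replicate 1 or 2 (limma adjusted p up to 0.0751), and CDKN2C without any library but NC replicate 3 (up to 0.133). Both lost it without the filter (limma adjusted p = 0.0878 for each), and CDKN2C without limma's trend (0.0631). RHOU and ADAMTS7 had log2 changes of -0.53 (limma adjusted p = 0.0675) and -0.36 (0.129).

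Within the groups, as deviations from the group means, the same 5 genes had an r of 0.95 to 0.998 with the member sum over the 6 libraries. The called acute-phase genes, taken from a list, had an r of 0.49 for PTX3, 0.38 for TF and 0.36 for CFB. All these genes share libraries with the members. The 5 genes were picked as the closest of all tested genes with a symbol over these same libraries, which favours a high r within groups. Their r is therefore not comparable with that of the list genes, and the difference was not tested.

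**Figure D5:**
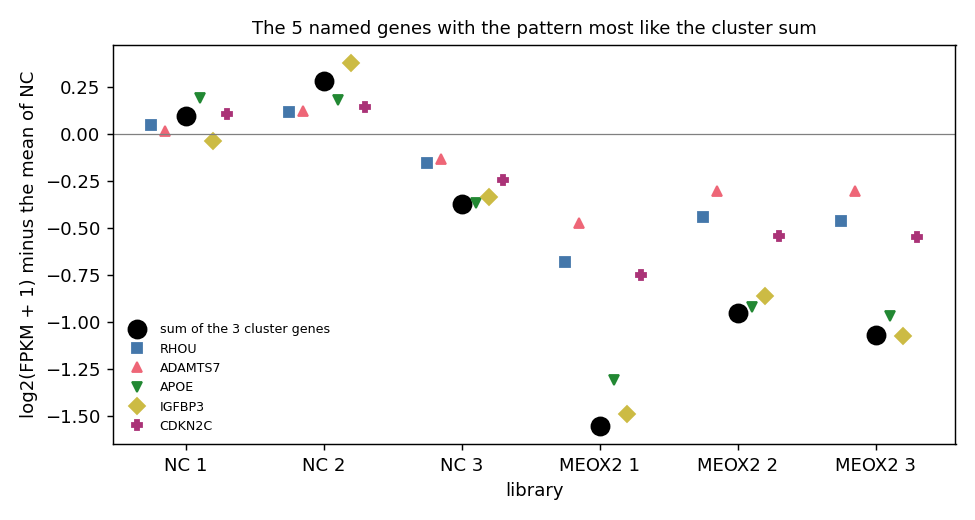
Log2(FPKM + 1) minus the mean of the NC libraries, for the sum of the 3 cluster genes (black) and the 5 named genes whose pattern over the 6 libraries was most like it, 1 column per library. APOE and IGFBP3 lie close to the black points in every library, whereas RHOU, ADAMTS7 and CDKN2C, which changed by -0.36 to -0.62, follow the same order over a smaller range.

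The cells carried stromal markers. PDGFRA, PDGFRB, THY1, DCN and LUM had group means of at least 134.8 FPKM, and CD34 was at 0.642 with MEOX2 and 1.37 FPKM in NC. These 6 markers summed to 5430 to 5536 FPKM with MEOX2 and 4400 to 5383 FPKM in NC. Most of that sum was DCN, at a mean of 3629 FPKM with MEOX2 and 3149 FPKM in NC, so it does not show the direction of the others. Limma called none of the 6. The log2 changes were 0.21 for PDGFRA and DCN, 0.22 for LUM, -0.02 for PDGFRB and THY1 and -0.54 for CD34. Of 6 mature adipocyte markers, ADIPOQ, FABP4, PLIN1 and CIDEC were called lower, beside 1.16% of all tested genes. LPL was not called and LEP had no read. The 6 adipocyte markers summed to 140.6, 129.2 and 116.8 FPKM in MEOX2 replicates 1, 2 and 3. In NC replicates 1, 2 and 3 they summed to 330.7, 338.0 and 283.9 FPKM. Between the groups this sum moved with the members, and within NC it had the order of the members' sum. Within the MEOX2 group it was highest in replicate 1, where each member was lowest. Its part in the members' fall was not tested. PLIN1 and CIDEC lost their calls in each fit without 1 library (limma adjusted p as high as 0.0893 and 0.0984), and ADIPOQ and FABP4 kept theirs. Of 8 macrophage and leukocyte markers, 4 were tested and none was called by limma, beside 2.67% of all tested genes. Among so few genes that absence is unremarkable. Of the 4, 1 had an unadjusted p under 0.05 by limma. That 1 was CD163, at 2.32 FPKM in NC and 1.38 FPKM with MEOX2 (log2 change -0.48, limma adjusted p = 0.170). CD68 had a log2 change of -0.29, CD14 one of 0.15 and LAPTM5 one of 0.35. The 8 markers summed to 122.9 to 134.5 FPKM with MEOX2 and 114.9 to 122.6 FPKM in NC. Nearly all of that sum was CD14, so it does not show the direction of the others. PTPRC, the marker of all leukocytes, had at most 2 reads in a library. Endothelial markers summed to at most 0.234 FPKM and epithelial and mesothelial markers to at most 3.07 FPKM in any library, with EPCAM at 0.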

How the data were processed

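The 6 libraries come from sheep cells, 3 overexpressing MEOX2 and 3 labelled NC. TRIzol RNA and an NEBNext Ultra kit were used, per the labels' protocols. The submitters' processing notes list DESeq2 1.20.0, featureCounts 1.5.0-p3, HISAT2 2.0.5, CASAVA 1.8 and fastp, without roles. The authors deposited FPKM values, 1 column per library, beside each gene's length. No source used here gives the genome build, annotation or strand setting.

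Multiplied by gene length, 100% of FPKM values above 0 were whole multiples of a library's smallest step (within 0.001 read), which gave back read numbers. The deposited values imply library sizes of 0.967 to 1.02 times those totals. Rows averaging at least 1 FPKM, 13121 in number, were fitted together as log2(FPKM + 1) with limma 3.58.1 (R 4.3.3; MEOX2 against NC, intensity trend). P-values were adjusted by Benjamini and Hochberg over all of them, with 0.05 as the threshold; the log2 scale understates changes of low genes. The fit was also run on simulated reads whose replicates varied less than those of the members. That run does not measure the fit's error rate on these data. Python 3.11.15, pandas 2.3.3 and scipy 1.17.1 served the other steps. List symbols were matched by symbol or RefSeq synonym; 1 gene of the acute-phase list is not reported here and is left out of its counts.

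Members and lists were chosen with earlier results of these data known. Named genes are the members, MEOX2, the rows of the window, called and nearest tested rows within 500 kb, called list members with up to 4 more of smallest p, and the 5 genes most like the member sum; any other name was picked with its values in view. The alternatives were pseudocount 0.1, no filter, median-centred and quantile-normalized values, no trend, limma voom on recovered reads, a replicate block, and each library left out.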

Additional observations from a re-analysis of the deposited data

How the results depend on the processing

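The members' log2 changes kept their sign and moved by less than 1 SD between replicates in every alternative run: apart from leaving out libraries, they lay between -1.15 and -1.12 for ENSOARG00000009847, -1.92 and -1.84 for ENSOARG00000009865 and -1.15 and -1.13 for ENSOARG00000009963. No calls are counted for the members, which this contrast chose, so their stability cannot be set beside that of other genes' calls. Of 22 other genes followed, none changed sign, but over all alternatives calls were lost 52 times and gained once. Apart from leaving out libraries, calls were lost without a filter by APOE, CDKN2C, IGFBP3, PLIN1, PTX3, TF and VWA5A (limma adjusted p = 0.0519 to 0.130), without the trend by CDKN2C, CFB and TF (0.0631 to 0.0711) and with the replicate block by CFB, CIDEC and TF (0.0596 to 0.0795), and ADAMTS7 gained one with limma voom (0.0245). Without a filter 194 genes were called, and with limma voom 547, against 350. Without a filter 0 neighbouring rows, 1 acute-phase gene and 0 receptor and lipid partner genes were called; the acute-phase count was also 1 without the trend. With single libraries left out, 112 to 280 genes were called over the table, 0 to 1 neighbouring rows, 0 to 3 acute-phase genes and 0 to 1 receptor and lipid partner genes; these fits have fewer samples.

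With the replicate block 242 genes and 1 acute-phase gene were called, and the members' log2 changes were as without it. Deviations of same-numbered libraries correlated at -0.075, 0.020 and -0.0042 for numbers 1, 2 and 3. Those of differently numbered libraries ran from -0.085 to 0.086. With so few libraries in a group, these values cannot show whether the numbers pair the samples. FPKM rescaled to total reads, an alternative chosen after seeing the data, called 336 genes. ENSOARG00000009865, with as few as 48 reads in a library, is the member with the fewest reads, and SAA4 and ENSOARG00000009899 cannot be compared at this depth.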
